A study of Homo sapiens with 3 samples.

Results

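The immediate early response genes described here are 10 human genes, FOS, FOSL2, JUN, JUNB, IER2, IER3, IER5, DUSP1, KLF10 and EGR1, out of 20037 coding genes of the gene table used. They were chosen by name, with earlier results of these data known. A peak was counted for a gene when its centre lay within the span of the gene. Spans are those that NCBI RefSeq gives in GRCh38.p14, whose coordinates are those of hg38. The peaks come from eCLIP, in which ultraviolet light links RNA to proteins, 1 protein is precipitated, and the RNA bound to it is sequenced. The cells were LS174T, an established human colon adenocarcinoma line, and all groups had been transfected for 24 h with mouse Pxr carrying an HA tag. All groups were exposed to ultraviolet light of 254 nm at 400 mJ per cm2. By the labels, the groups were 2 replicates of the PXR immunoprecipitate and 1 input library. The protocol lists antibodies against PXR, HA and IgG without saying which library each served, and the receptor measured is a transfected mouse protein in human cells. The data are 1 list of 21031 peaks. Depths of the single libraries are not analysed here, and the sources used here do not say whether both immunoprecipitates entered the list. No value below therefore has a replicate error or a test between immunoprecipitate and input.

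Immediate early genes are transcribed within minutes of a signal such as serum, a growth factor or stress, without new protein synthesis, because the factors that start them are already in the cell. Kinases of the MAP kinase pathways act on the serum response factor, its ETS partners and CREB at their promoters. Their RNAs are short, often carry AU-rich elements and are degraded quickly, so that the response is brief. FOS, FOSL2, JUN and JUNB encode subunits of the AP-1 transcription factor, in which a FOS protein pairs with a JUN protein. EGR1 and KLF10 encode zinc finger transcription factors, DUSP1 a phosphatase that switches MAP kinases off, IER5 a regulator of heat shock factor, and IER3 a stress-induced regulator of cell survival. IER2 encodes a nuclear protein of the response.

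The RefSeq promoter table, which gives 250 bases before to 50 bases after the start of a gene in GRCh38.p14, held 8 of the 10 members, with IER3 and KLF10 as the exceptions. It also supplied the strand of these 8 genes. Windows were searched on both strands for TGACGTCA (the cAMP response element), TGACGT (its shorter form, contained in TGACGTCA on both strands), TATAAA and the CArG box (the serum response factor motif). The windows of EGR1, FOS and DUSP1 are printed because each held at least 2 of these motifs, which stand in capitals. EGR1 lies on the plus strand at chr5:138465229-138465528, FOS on the plus strand at chr14:75278578-75278877 and DUSP1 on the minus strand at chr5:172771146-172771445.
EGR1: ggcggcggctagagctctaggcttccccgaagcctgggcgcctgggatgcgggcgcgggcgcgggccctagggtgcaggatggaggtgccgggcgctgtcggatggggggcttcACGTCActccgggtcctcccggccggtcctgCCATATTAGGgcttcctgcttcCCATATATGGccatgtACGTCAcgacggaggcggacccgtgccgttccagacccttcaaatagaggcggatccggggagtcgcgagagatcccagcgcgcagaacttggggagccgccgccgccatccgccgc
FOS: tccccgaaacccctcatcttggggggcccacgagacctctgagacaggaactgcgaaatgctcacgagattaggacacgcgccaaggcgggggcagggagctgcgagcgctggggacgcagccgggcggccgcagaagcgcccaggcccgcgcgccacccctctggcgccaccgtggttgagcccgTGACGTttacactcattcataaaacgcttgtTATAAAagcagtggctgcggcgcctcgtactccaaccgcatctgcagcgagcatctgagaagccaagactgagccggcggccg
DUSP1: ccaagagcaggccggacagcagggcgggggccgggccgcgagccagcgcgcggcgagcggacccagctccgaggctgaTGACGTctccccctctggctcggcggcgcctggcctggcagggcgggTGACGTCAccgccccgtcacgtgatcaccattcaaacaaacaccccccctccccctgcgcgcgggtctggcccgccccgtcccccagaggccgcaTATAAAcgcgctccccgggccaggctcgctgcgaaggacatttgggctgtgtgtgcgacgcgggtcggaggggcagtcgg
The EGR1 window held 2 CArG boxes, starting at -105 and -83 from the gene start, and TGACGT at -136 and -67 on the opposite strand. The FOS window held TGACGT at -64 and TATAAA at -33. The DUSP1 window held TGACGTCA at -125, a further TGACGT at -172 and TATAAA at -30. Over the 8 members, TGACGT was found in 4, TATAAA in 3, the CArG box in 1 and TGACGTCA in 1. Of all 35116 windows in the table on chromosomes 1 to 22, X and Y, 7.98% held TGACGT, 11.5% TATAAA, 1.29% a CArG box and 1.85% TGACGTCA. A match is a string of letters and not a measured site. The peaks described next begin after these windows, except that of JUN, whose 5′ edge lies 46 bases inside its gene and so just within its window.

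Of the 10 members, 9 held a peak (90.0%, Wilson 95% interval 59.6 to 98.2%), and IER3 held none. Because the members were chosen with earlier results known, this interval does not stand for a random draw of immediate early genes. Among 26 other immediate early genes described below, 14 held one (53.8%). The share over all coding genes was 41.6% (8329 of 20037). Over the 9297 coding genes with spans within the members' length range, 1349 to 24460 bases, it was 35.5%. The 9 genes held 20 peaks between them, of which 5 lay in FOSL2, 4 in EGR1, 2 each in FOS, JUN, IER2 and IER5, and 1 each in JUNB, DUSP1 and KLF10. Only the first FOSL2 peak had its centre in a further gene, FOSL2-AS1, an lncRNA gene on the opposite strand. All 19 peaks in the 8 members with a known strand lay on the strand of their gene, and over all peaks in 1 coding gene of known strand the share was 98.4%. The peak list holds immunoprecipitated RNA without a measure of expression, so a more abundant RNA and more binding per RNA cannot be told apart in any value below.

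**Figure D1:**
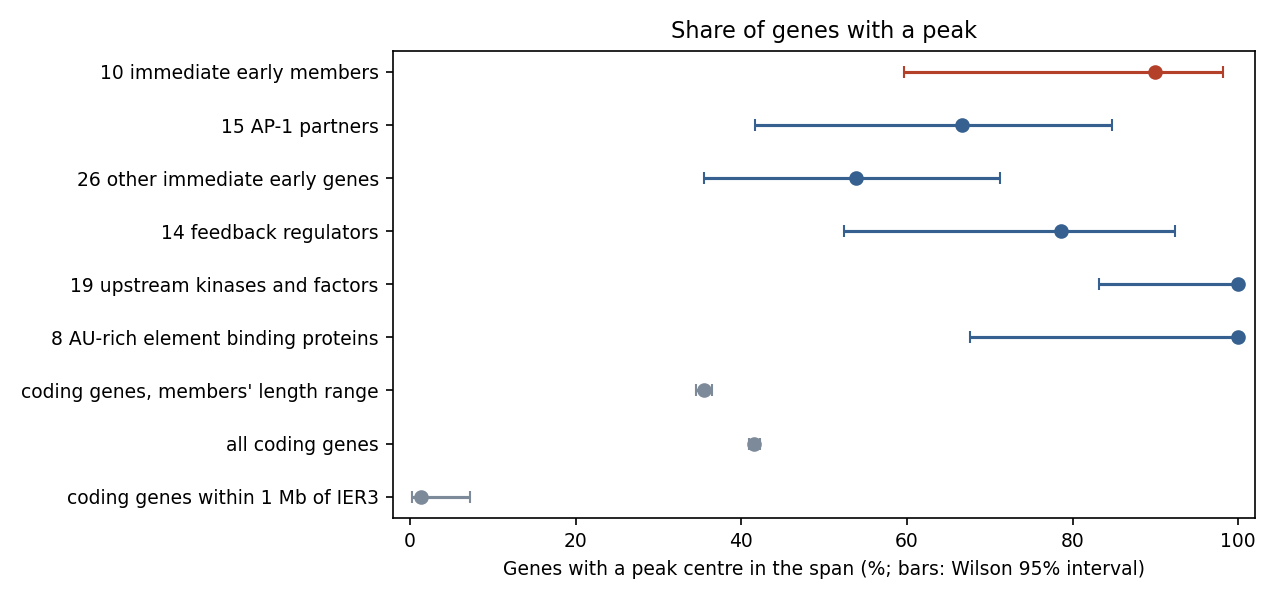
Share of genes with a peak centre in their span, in percent, for the 10 members (top), 5 other lists of the same pathway, and the background sets of coding genes (bottom). Points are shares and bars are Wilson 95% intervals, which for the members and the 5 lists do not stand for a random draw. The members sit at 90.0%, against 35.5% of coding genes of their length range, 41.6% of all coding genes and 1.35% of the coding genes within 1 Mb of IER3.

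The depth of a peak is given as the number of reads at its summit, recovered from the deposited fold and −log10 p, with an exact Poisson 95% interval that covers counting error only. The deposited fold is the authors' ratio of the summit to a background, which in all 20 member peaks was the number of reads in the surrounding 10 kb on the same strand, scaled to 200 bases. It is not read here as a ratio of immunoprecipitate to input. Summit and background are taken to be counts of the same reads, which was not checked against the libraries. JUN had the deepest summit among the members. JUN (chromosome 1 from 58780791 to 58784047, minus strand) had 121 reads (interval 100 to 145) at a summit 329 bases from its start. That peak, at 58782192 to 58784001, was 1810 bases wide, with a fold of 6.50. Its second peak, at 58781534 to 58781902, lay 289 bases further along the RNA and had 57 reads (43.2 to 73.9) at a fold of 3.09. The 5′ summit of JUN was thus deeper than the 3′ one beyond counting error, and both share the same 889 reads in 10 kb.

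FOS (chromosome 14 from 75278828 to 75282230, plus strand), the partner of JUN in AP-1, also held a wide 5′ peak and a second peak behind it. The first, at 75278948 to 75280444, was 1497 bases wide and had 83 reads (66.1 to 103) at a fold of 5.45. The second, at 75280909 to 75281852, was 944 bases wide and had 72 reads (56.3 to 90.7) at a fold of 4.73. Unlike those of JUN, the intervals of these summits overlap. A gap of 464 bases parted the peaks, and together they covered 71.7% of the FOS span. JUNB (chromosome 19 from 12791486 to 12793315, plus strand), a JUN relative without introns like JUN itself, held 1 peak, at 12791621 to 12793323. It was 1703 bases wide, covered 92.6% of the JUNB span and had 34 reads (23.5 to 47.5) at a fold of 6.73. The HOOK2 gene overlaps JUNB from the minus strand, but the JUNB peak was on the plus strand.

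FOSL2 (chromosome 2 from 28392858 to 28417317, plus strand), a FOS relative and with 24460 bases the longest member, had its 5 peaks spread over the gene. The first, at 28393020 to 28393946, lay 162 bases from the gene start and had 35 reads (24.4 to 48.7) at a fold of 7.44. The second, at 28404188 to 28404486, had 28 reads (18.6 to 40.5) at a fold of 6.62, near the middle of the gene. The other 3 lay between 28412079 and 28414283, toward its 3′ end, with 33, 31 and 33 reads. Their folds were 3.49, 3.25 and 3.56. All 5 intervals of summit reads overlap, while the folds fall into a higher pair at the 5′ side and a lower trio at the 3′ side. The surrounding 10 kb held 192 and 169 reads around the first pair and 427 to 442 around the trio, so the folds differ by their backgrounds and not by their summits.

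**Figure D2:**
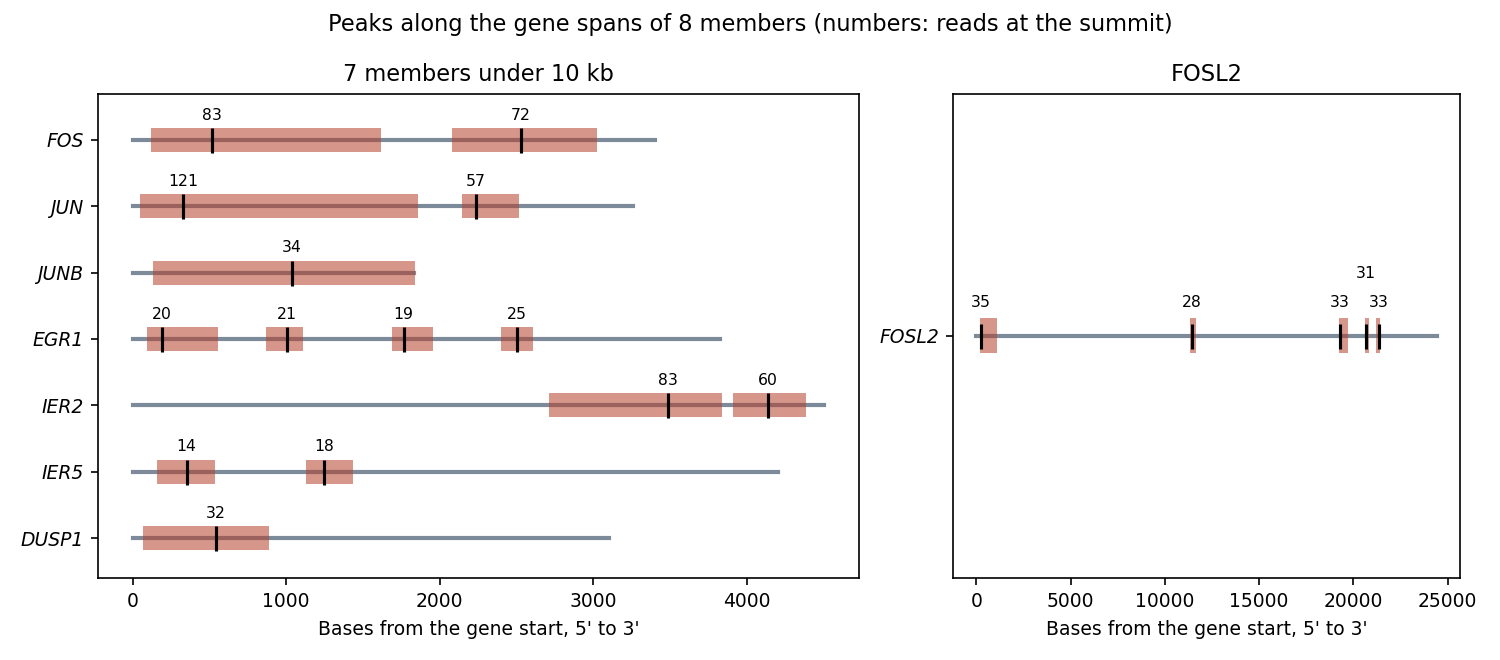
Peaks along the spans of the 8 members with a known strand, in bases from the gene start, drawn 5′ to 3′. Grey lines are gene spans, red bars are peaks, black ticks are summits and numbers are reads at the summit. JUNB is covered almost end to end, FOS and JUN carry a wide 5′ peak, and the IER2 peaks begin 2710 bases into its span.

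The zinc finger genes were shallower. EGR1 (chromosome 5 from 138465479 to 138469303, plus strand) held 4 peaks of 209 to 464 bases at intervals along the gene, parted by gaps of 308 to 581 bases. Their summits had 20, 21, 19 and 25 reads in 5′ to 3′ order, with folds of 4.18, 4.37, 3.94 and 5.10. All 4 intervals overlap, so no part of the EGR1 span stood out in depth. KLF10 (chromosome 8 from 102648784 to 102655725) held 1 peak of 292 bases on the minus strand, at 102651267 to 102651558. It had 14 reads (7.65 to 23.5) at a fold of 7.43, and these were 27.5% of the reads in its 10 kb, the highest such share among the member peaks. KLF10 was also the member with the fewest reads in 10 kb, 51.

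The IER genes differed widely in depth. IER2 (chromosome 19 from 13150411 to 13154911, plus strand) held 2 peaks, 74 bases apart, at 13153121 to 13154244 and at 13154319 to 13154795. They had 83 reads (66.1 to 103) at a fold of 7.33 and 60 reads (45.8 to 77.2) at a fold of 5.32. Both lay in the 3′ part of the span, the first beginning 2710 bases from the gene start, and no peak in the IER2 span preceded them. IER5 (chromosome 1 from 181088700 to 181092900, plus strand) held 2 narrower peaks, of 383 and 311 bases, with 14 reads (7.65 to 23.5) and 18 reads (10.7 to 28.4). Their folds were 6.15 and 7.79, near those of IER2, although the intervals of reads of the 2 genes do not overlap. DUSP1 (chromosome 5 from 172768096 to 172771195, minus strand) held 1 peak, at 172770309 to 172771124, which began 71 bases from the gene start. It was 816 bases wide and had 32 reads (21.9 to 45.2) at a fold of 7.67.

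**Figure D3:**
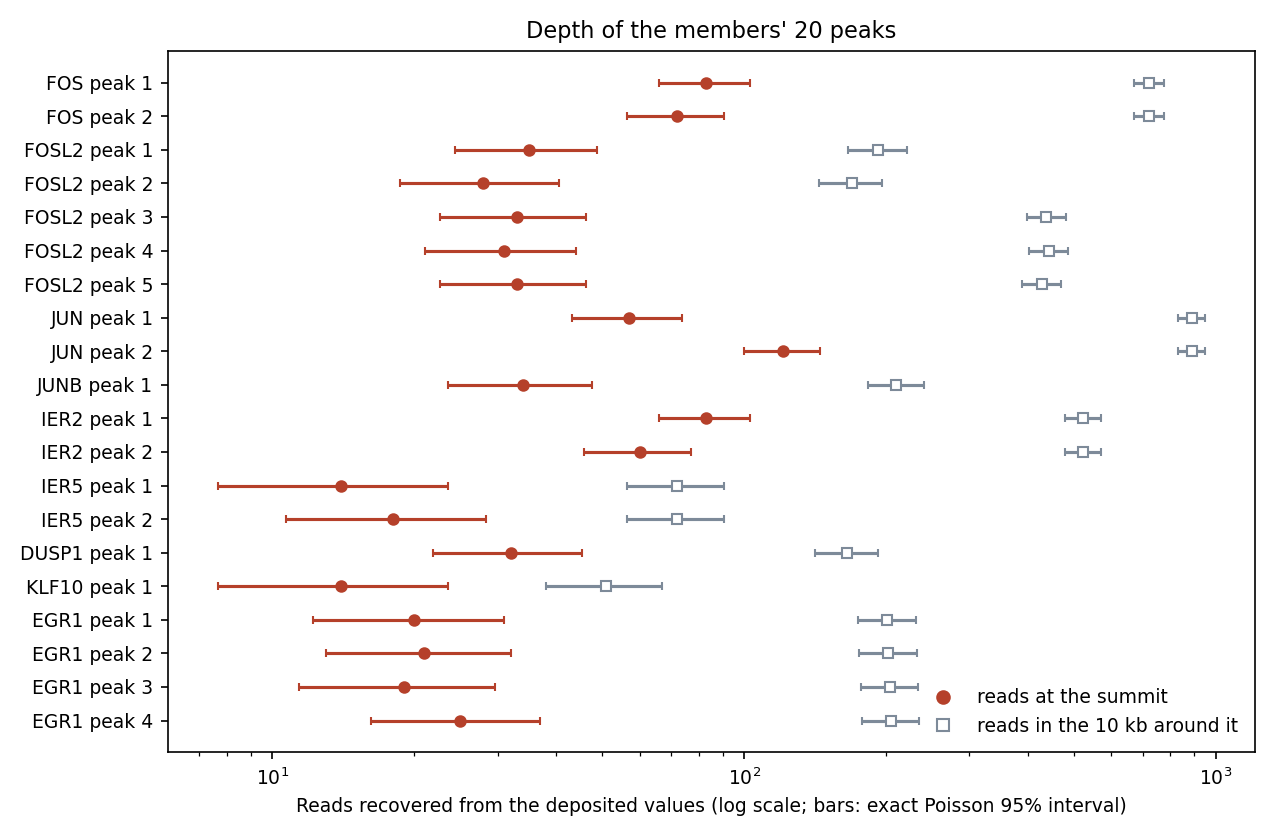
Reads at the summit (red points) and in the 10 kb around it (grey squares) for each of the members' 20 peaks, numbered by genome coordinate, on a log axis of reads with exact Poisson 95% intervals. Summits run from 14 reads in IER5 and KLF10 to 121 in JUN, and the 10 kb counts from 51 in KLF10 to 889 in JUN.

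A 10 kb window takes in the whole of each member except FOSL2, so its reads, divided by the length of the gene, give a level per kb of span, introns included. JUN had 273 reads per kb of span (interval 255 to 291) and FOS 212 (197 to 228). IER2 had 116 (106 to 127) and JUNB 115 (99.8 to 131), which do not differ beyond counting error. EGR1 had 53.6 (46.5 to 61.5) and DUSP1 53.2 (45.4 to 62.0), again level with each other. IER5 had 17.1 (13.4 to 21.6) and KLF10 7.35 (5.47 to 9.66), each below the next higher member beyond counting error. The order therefore runs from JUN and FOS, through the pairs of IER2 with JUNB and EGR1 with DUSP1, to IER5 and KLF10. Reads from other RNAs of the same strand in the window would be counted too. Within 5 kb of the members, the peaks outside their spans were 1 in PRDX2 near JUNB and 1 in STX10 near IER2, both on the minus strand and so not in these counts.

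Set beside other coding genes with a peak, the members had wide peaks and ordinary folds. Because the background covers 10 kb, more than the whole of each member except FOSL2, a fold also depends on gene length. Folds of genes unlike in length are therefore not like measures. The highest fold of a member ranged from 5.10 in EGR1 to 7.79 in IER5, with a median of 7.33. The median was 7.37 over all 8329 coding genes with a peak and 6.80 over the 3300 of them in the members' length range. Among genes with a peak from 1349 bases to under 10 kb, it was 7.03 in the 8 members and 6.65 in all 1508 coding genes. The highest member fold was above the median of all coding genes with a peak in 4 of 9 members, IER5, DUSP1, FOSL2 and KLF10. The deepest summit of a member had a median of 34 reads, against 25 in the length range and 22 over all coding genes with a peak. By this depth JUN exceeded 96.7% of all coding genes with a peak and FOS and IER2 93.6% each, while IER5 exceeded 38.9% and KLF10 25.0%.

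The widest peak of a member had a median of 927 bases, against 375 bases in the length range and 357 over all coding genes with a peak. It reached 1000 bases or more in 4 of 9 members, JUN, JUNB, FOS and IER2, against 5.15% of genes with a peak in the length range and 3.99% of all coding genes with a peak. In 8 of 9 members, all but KLF10, the widest peak was wider than the median of the length range. Peaks covered 30.9% of the span in the median member and 5.90% in the median gene of the length range. The members are shorter than that range's genes, with a median span of 3614 bases against 9488. Among genes with a peak from 1349 bases to under 10 kb the median cover was 33.2% in the 8 members and 11.0% in all 1508 coding genes. The cover ran from 4.21% in KLF10 to 92.6% in JUNB, and it was above the median of the length range in 8 of 9 members. The length of 1000 bases was chosen after the widths were seen.

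**Figure D4:**
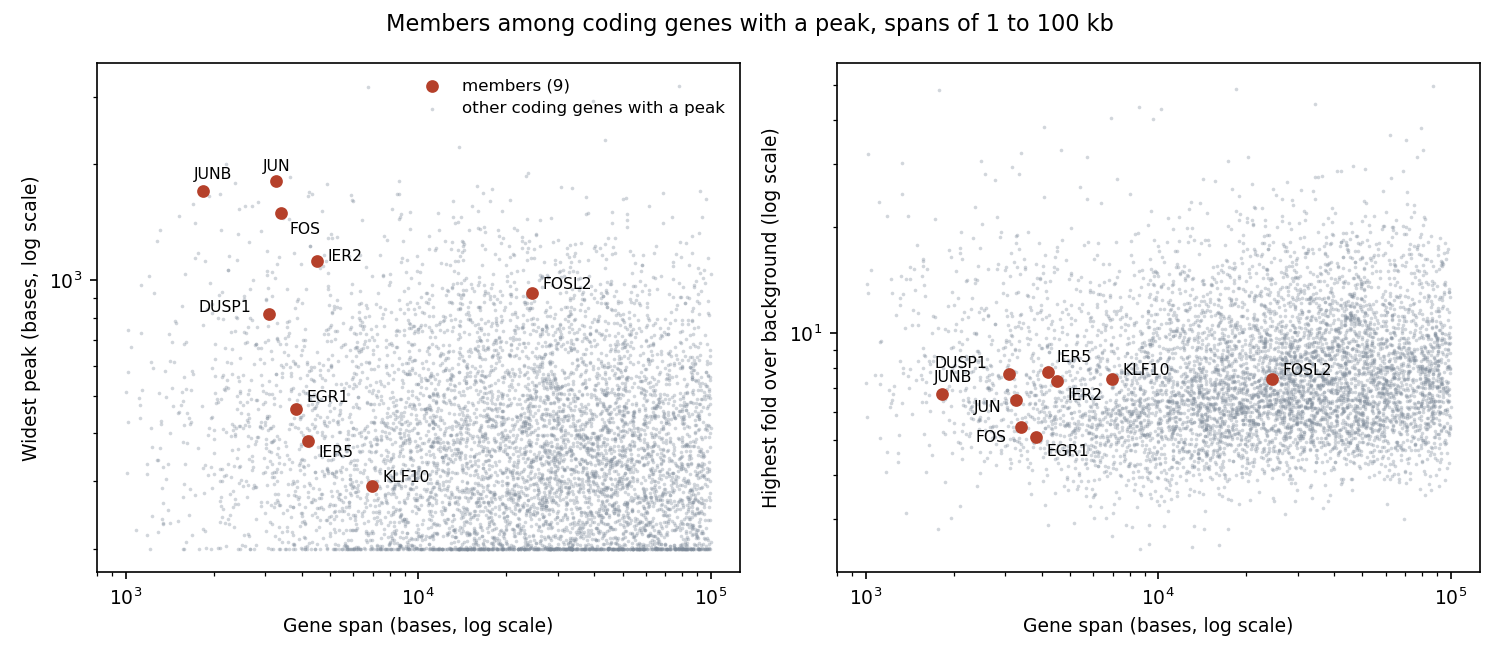
Widest peak in bases (left) and highest fold (right) against gene span in bases, all on log axes, for the 9 members with a peak (red) and the other coding genes with a peak and spans of 1 to 100 kb (grey). JUN, JUNB, FOS and IER2 lie at or above 1124 bases in width, while all 9 members lie between folds of 5.10 and 7.79.

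How evenly the reads lay along a gene was measured for the 8 members under 10 kb with a peak, as the reads at the deepest summit over those expected if the reads of the 10 kb were spread evenly on the span. A value of 1 is an even spread. JUNB had 1.48, FOS 1.96, JUN 2.22, EGR1 2.33, DUSP1 3.01, IER2 3.57, IER5 5.25 and KLF10 9.53. The median was 2.67, against 4.89 over the 1508 coding genes with a peak from 1349 bases to under 10 kb. The lowest values among these 8 were thus those of the AP-1 genes JUNB, FOS and JUN, and KLF10 had the highest. For a given share of the 10 kb reads at the summit, the value rises with the span. JUNB was the shortest of the 8, at 1830 bases, and KLF10 the longest, at 6942. The median span was 3403 bases in the 9 members under 10 kb, IER3 included, against 5058 in 4904 coding genes of that range. Neither the order nor the gap between medians is therefore separated from length. KLF10 and IER5 had the fewest 10 kb reads, 51 and 72. Whether flatter reads there would be called a peak was not tested. Exons were not used here, so introns without reads raise this value.

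Most members had a peak that began near the gene start. The 5′ edge of a peak lay 46 bases inside the start in JUN, 71 in DUSP1, 95 in EGR1, 120 in FOS, 135 in JUNB, 156 in IER5 and 162 in FOSL2. In all, 7 of the 8 members of known strand had a same-strand peak edge within 200 bases of the start, all but IER2. The share was 43.8% over the 6924 coding genes with a peak and a known strand, and 40.7% over the 2736 of these in the length range. Genes of that range are longer than the members, with a median span of 9488 bases against 3614. A share among shorter genes was not taken. The distance of 200 bases was chosen after these values were seen. Within 100 bases the count was 3 of 8 members, against 30.8% of such coding genes, and within 500 bases it was 7 of 8, against 51.3%. The deepest summit lay close to the start in FOSL2, JUN, FOS and DUSP1, at 1.02%, 10.1%, 15.2% and 17.5% of its length. It lay at 29.7% in IER5, 56.7% in JUNB, 65.4% in EGR1 and 77.4% in IER2. In FOSL2, FOS, IER5, EGR1 and IER2 the intervals of the summits within the gene overlap, so which summit is deepest is not settled there. JUNB and DUSP1 held a single peak, and only in JUN was the deepest summit apart from the other beyond counting error.

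IER3, on chromosome 6 from 30743199 to 30744547, held no peak, and neither did its antisense gene IER3-AS1. The region around it was nearly empty of peaks as well. Of the 74 other coding genes within 1 Mb of IER3, 1 held a peak (1.35%, Wilson interval 0.239 to 7.27%). The nearest coding genes, FLOT1 and TUBB, for flotillin and a tubulin found in most cells, held none. Around the other 9 members the share of coding genes within 1 Mb that held a peak ran from 34.5% around EGR1 to 60.0% around JUN. Chromosome 6 had 854 peaks in all, and 12 more lay on 5 alternate sequences of chromosome 6, the deepest with 26 reads, whose genes were not assigned here. The part of these alternate sequences in the absence of peaks around IER3 was not tested, and nothing is drawn here about the level of IER3 RNA. The 1 Mb distance was chosen after the data were seen.

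The kinases and factors that switch immediate early genes on all held peaks. Of 19 upstream kinases and factors, 19 had a peak (Wilson interval 83.2 to 100%), against 41.6% of all coding genes, but their spans are long, with a median of 75450 bases. Like the members, this list and those below were chosen with earlier results known. Their intervals therefore do not stand for a random draw and are no test against the share of all coding genes. MAP2K2, a kinase of the MAP kinase cascade, had the highest fold, 25.1 from 94 reads (76.0 to 115). MAPK14, the p38 kinase, had a fold of 16.2. RPS6KA1, a ribosomal S6 kinase gene, had 12.9 and MAP2K1, a relative of MAP2K2, had 12.8. The highest folds of these 4 genes were above that of every member, while their deepest summits, at 28 to 94 reads, lay within the members' range. Each of the 4 is longer than any member, the shortest being MAP2K2 at 33802 bases, so these folds are not separated from length.

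Some AP-1 partners and other immediate early genes had peaks. Of 15 AP-1 partners, 10 had one (66.7%, Wilson interval 41.7 to 84.8%). The share of all coding genes, 41.6%, lay just under the lower end of that interval, and nothing is drawn from this. The highest folds were those of JDP2 at 7.39, JUND at 7.13, MAFG at 6.15, FOSL1 at 5.87 and ATF7 at 5.86. JUND, the JUN gene expressed most constantly, had 184 reads (158 to 213) in a peak 1652 bases wide, deeper than JUN. Those without a peak included ATF2, BATF, BATF3 and MAF. Of 26 other immediate early genes, 14 had one (53.8%, 35.5 to 71.2%). That interval includes the 41.6% of all coding genes, but their median span was 24115 bases against 5311 in this list. The share in the members' length range was 35.5%, at the lower end of the interval. From 1349 bases to under 10 kb, with a median span of 5058, 1508 of 4904 coding genes held a peak. A difference between this list and genes of like length was not tested. BTG1, an antiproliferative gene, led with a fold of 9.81 from 61 reads, followed by the Notch target HES1 at 8.06, the GTPase gene RHOB at 7.97, MYC at 7.36 from 188 reads (162 to 217) and IER5L, a relative of IER5, at 7.26. The relatives EGR2, EGR3 and EGR4 of EGR1, and NR4A2 and NR4A3, had no peak. Peaks of 1000 bases or more were found in 4 of these 14 genes and in 1 of the 10 AP-1 partners, against 3.99% of all coding genes with a peak.

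Of 14 feedback regulators, whose products end the response, 11 had a peak (78.6%, Wilson interval 52.4 to 92.4%), against 41.6% of all coding genes. Their median span was 14588 bases. DUSP5, DUSP8 and DUSP10, relatives of DUSP1, had no peak. The highest folds were 7.11 in DUSP16, 7.03 in DUSP4, 6.64 in SPRED2, 6.16 in SPRED1 and 6.12 in DUSP2. DUSP4 had the deepest summit of the 11, 68 reads (52.8 to 86.2), against 32 (21.9 to 45.2) in DUSP1. Of 8 genes for proteins that bind AU-rich elements, 8 had a peak (67.6 to 100%), against the same 41.6%, with a median span of 16602 bases against 3614 for the members. HNRNPD, which encodes the decay factor AUF1, reached a fold of 16.7 from 147 reads (124 to 173), KHSRP 15.4, TIAL1 15.1, TIA1 13.0 and ELAVL1, the stabilising protein HuR, 6.30. In 4 of these 8 genes the widest peak was 1000 bases or more, against 3.99% of all coding genes with a peak. Of these 4, only KHSRP, at 1496 bases, is named here. None of the 11 feedback regulators or the 19 upstream genes had a peak of 1000 bases or more. At so low a share, lists of that size can hold none, so nothing is drawn from these counts.

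Of the 7 colon epithelial markers used to check the cells, EPCAM, KRT8, KRT18, CDH1, VIL1 and CDX2 had a peak and KRT20 had none. KRT8 and KRT18 share peaks, so they do not count as separate markers. Over all coding genes, 41.6% held a peak. None of 5 markers of liver, blood, connective tissue and endothelium (ALB, PTPRC, CD3E, COL1A1 and PECAM1) had one. No treatment of the cells is given beyond the transfection and the ultraviolet exposure, which all groups shared. No member can therefore be compared between a resting and a stimulated state.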

How the data were processed

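The data were 1 peak list of eCLIP of mouse PXR in LS174T cells. Per the submitters' processing notes, cutadapt, BWA and MACS2 were used on hg38, and the peak names show calls made apart by strand. The authors' deposited values are a score (the integer part of 10 times −log10 q, in all 21031 peaks), a fold (ratio of summit to background), −log10 p and −log10 q of p-values and q-values, and the summit offset, another deposited column in bases. Summit reads k and background b were solved from the fold, (k + 1)/(b + 1), and the upper Poisson tail beyond k. A whole k matched the deposited −log10 p in 21028 peaks (tolerance 0.0001, increased by 0.00001 of the value). For the member peaks, 50 times b was a whole number within 0.00058. On 2000 simulated peaks made with this same relation, 100% of read counts were recovered. This checks the solving step only, and cannot show that the deposited values follow the relation. The simulation did not reach the deepest summits or the lowest folds of the list. Depth of single libraries was not analysed here. Peaks are positioned 1-based. Genes and strands came from RefSeq tables of GRCh38.p14. The members and lists were chosen with earlier results of these data known. All members were named, with the 5 highest folds and up to 5 genes without a peak per list, except that a few genes are not reported here, and no test was made. Other peak filters and span rules were tried. Python 3.11.15, numpy 2.4.6, pandas 2.3.3 and scipy 1.17.1 were used.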

Additional observations from a re-analysis of the deposited data

How the results depend on the processing

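The count of members with a peak was 7 to 9 under 7 other ways of counting peaks, and IER3 had no peak under any of them. It was 7 when peaks under the median −log10 q were dropped, where KLF10 and EGR1 dropped out, and 7 with only peaks of 20 or more reads, where IER5 and KLF10 did. With that −log10 q filter the members held 11 peaks in place of 20, and 25.9% of coding genes held one in place of 41.6%. With only peaks of 20 or more reads, that share was 23.1% and the median of the members' highest folds 6.73 in place of 7.33. With spans extended by 1000 bases the median was 7.43, because the minus-strand peak of STX10 then counted for IER2. The share in the members' length range was 35.5%. An alternative chosen after seeing the data, any overlap on the gene strand alone, gave 8 members and 19 peaks, since KLF10 had no strand in the table used. No paired analysis was possible because the data are 1 peak list in which libraries are not separated, and for the same reason no replicate could be left out. Depth limits the shallowest summits, of 14 reads in IER5 and KLF10, to intervals of 7.65 to 23.5 reads.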
